A study of Homo sapiens with 4 samples.

Results

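Notch signalling genes were examined in HaCaT cells, an immortalized human epidermal keratinocyte line, by RNA-seq. The 10 genes were taken by symbol and comprised the 4 receptors NOTCH1, NOTCH2, NOTCH3 and NOTCH4, the ligands JAG1, JAG2 and DLL1, and 3 genes called effectors here, HES1, HEY1 and RBPJ. They are 10 of 44591 genes in the tables, of which 19233 are annotated as protein-coding. The series holds 4 replicates of untreated HaCaT cells grown in serum-containing Dulbecco's modified Eagle medium, as a single condition with no comparison group. All 4 come from the same line. The study calls them biological repeats, but the labels do not say that they were separate cultures, so each p-value measures only the spread between these samples, which may be technical. The question asked of the data is which receptors, ligands and effectors these keratinocytes express, and at what levels relative to each other.

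Notch receptors are single-pass membrane proteins that bind ligands of the Jagged and Delta-like families on a neighbouring cell. Binding leads to cleavage by an ADAM protease and then by gamma-secretase, and the released intracellular part enters the nucleus, where it joins the DNA-binding protein RBPJ and a Mastermind-like coactivator to turn on targets such as the HES and HEY repressors. In the epidermis the pathway is known for promoting the change of basal keratinocytes into differentiating suprabasal cells.

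The site that RBPJ binds is shown for genes whose levels are given here, because it links the receptors to the effectors. The letters searched were GTGGGAA, the core of the RBPJ site, and the shorter TGGGAA, which lies inside it. Both strands were read, in RefSeq windows (GRCh38.p14) from 250 bases before to 50 bases after each annotated start. A gene can have several starts. GTGGGAA was present in 6.25% of all 35116 windows and in at least 1 window of 7.62% of 27305 genes, and TGGGAA in 24.0% of windows and 28.1% of genes. Among the 10 genes, 8 had a window. GTGGGAA was in the 1 window of HES1 and in 1 of the 5 windows of RBPJ, and in no window of the other 6 genes. Both stretches are printed with HES4 and the second of 2 matches of HES5, other repressors of the HES family, each 5′ to 3′ on the gene's strand with the matches in capitals. TTCCCAC is the same site on the opposite strand. The HES1 stretch is chr3:194136043-194136103 on the plus strand, RBPJ is chr4:26319611-26319699 on the plus strand, HES4 is chr1:1000148-1000194 on the minus strand, and HES5 is chr1:2530318-2530364 on the minus strand.
HES1: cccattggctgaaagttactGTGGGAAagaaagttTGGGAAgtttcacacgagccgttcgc
RBPJ: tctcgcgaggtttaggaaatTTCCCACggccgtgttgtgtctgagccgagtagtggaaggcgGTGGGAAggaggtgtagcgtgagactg
HES4: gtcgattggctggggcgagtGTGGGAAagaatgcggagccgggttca
HES5: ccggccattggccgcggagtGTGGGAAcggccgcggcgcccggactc

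In HES1 the GTGGGAA match began 85 bases before the start, and a TGGGAA match on the same strand began at 70. In RBPJ, a match on the opposite strand began 115 bases before the start and a GTGGGAA match at 73. The matches printed for HES4 and HES5 began 77 and 81 bases before the start. Of the 8 other HES and HEY family and feedback genes, 4 held GTGGGAA in at least 1 window, namely HES4, HES5, HEY2 and HEYL, against 7.62% of all genes. These matches are a description of the letters, and binding was not measured.

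The libraries held 17056035 to 19745170 counts in replicates 2 to 4 and 73082279 in replicate 1. Replicate 1 stood apart in its makeup, since 76.1% of its counts fell on protein-coding genes against 95.3% to 96.4% in the others. Across detected genes, the difference of replicate 1 from the mean of the others fell with GC content (Spearman correlation -0.51, against 0.24 to 0.38 for the same measure in the others), and that of replicate 3 fell with gene length (-0.42, against 0.10 to 0.25). These correlations are over genes, which are not independent replicates. Levels are therefore given as TPM over protein-coding genes, computed from counts and gene lengths in each replicate. TPM is the count per gene length, scaled to the same total of 1000000 in each replicate. Several results that rest on replicate 1 are also given without it. The 12 keratinocyte markers were all detected, at a summed level of 11905 to 17022 TPM, led by the basal keratins KRT14 and KRT5. Of the 7 endothelial markers none passed the detection limit, and PECAM1, KDR and TEK were at 0 in all replicates. VWF was at 2.36, 0.119, 0 and 0.0911 TPM in replicates 1 to 4. CDH5 was at 0, 0.762, 0.859 and 1.49 TPM, with a mean of 1.04 TPM over replicates 2 to 4. ERG and CLDN5 were at most 0.0524 and 0.195 TPM. The summed levels of the fibroblast, melanocyte, leukocyte and smooth muscle markers were 1.36 to 12.0 TPM, with 2 of 7, 1 of 5, 1 of 5 and 1 of 4 genes above the limit. In bulk RNA, fewer cells that express a gene and less of its RNA in each cell cannot be told apart.

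Transcripts of 9 of the 10 genes were detected, that is, at a mean above 1 TPM. NOTCH4 was the exception. Among all protein-coding genes 63.3% passed this limit. From the highest mean to the lowest, the order was JAG2, HES1, JAG1, NOTCH1, NOTCH2, DLL1, RBPJ, NOTCH3, HEY1 and NOTCH4. Over all 4 replicates, most neighbours in this order could not be separated. Of the 9 neighbouring pairs, 3 had a mean difference larger than its SD over replicates (NOTCH1 and NOTCH2, DLL1 and RBPJ, HEY1 and NOTCH4), and 6 did not. Only JAG1 over NOTCH1 and HEY1 over NOTCH4 kept their order in all 4 replicates. In replicates 2 to 4 alone, JAG2 over HES1, NOTCH1 over NOTCH2, DLL1 over RBPJ and RBPJ over NOTCH3 kept theirs as well. The mean of DLL1 over replicates 2 to 4 was 31.1 TPM, above that of NOTCH2 at 29.1 TPM.

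**Figure D1:**
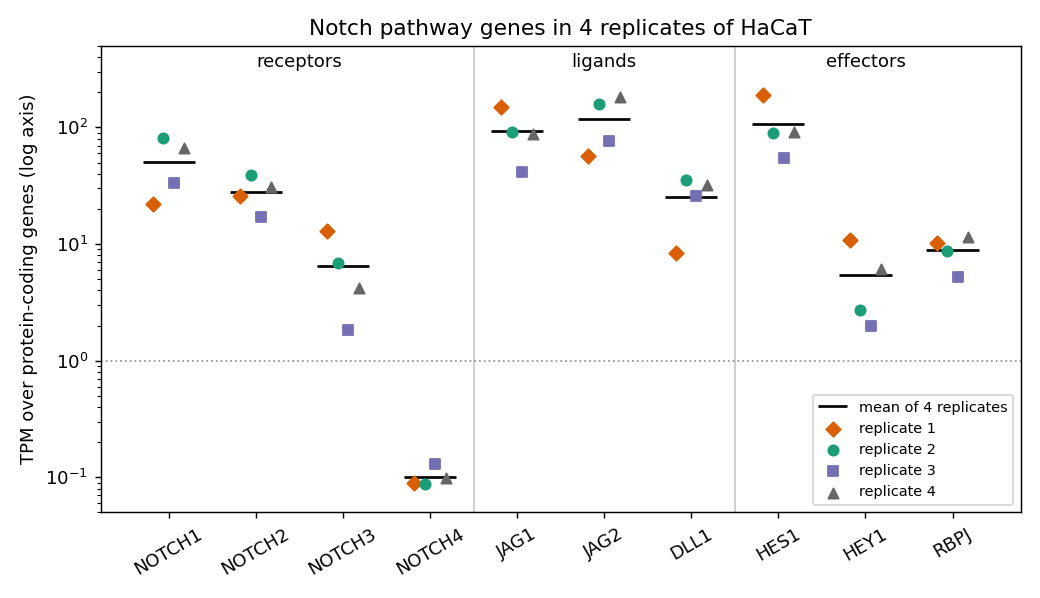
Level of each gene in TPM over protein-coding genes (log axis) in each of 4 HaCaT replicates (symbols), with the mean of the 4 as a bar and the detection limit of 1 TPM as a dotted line. NOTCH4 lies near 0.1 TPM in every replicate, the other 9 genes lie above 1 TPM in every replicate, and replicate 1 (diamonds) is the lowest for NOTCH1, JAG2 and DLL1 and the highest for NOTCH3, JAG1, HES1 and HEY1, which is lost for these 4 with TPM over all genes.

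NOTCH1, the receptor best known for its part in epidermal differentiation, was the receptor with the highest mean level. The gene spans 139388885 to 139440238 of chromosome 9 on the minus strand (hg19, as in the tables). Its level was 22.0, 81.1, 33.2 and 66.5 TPM in replicates 1 to 4, from counts of 4965, 5019, 2776 and 4613, and the mean was 50.7 ± 27.7 TPM (SD, n = 4). Without replicate 1 the mean was 60.3 ± 24.6 TPM (n = 3). Replicates 2 and 4 were high and replicates 1 and 3 low. An antisense transcript (ENSG00000227512.1) on the opposite strand overlaps NOTCH1, at 0, 41, 2 and 6 counts. Whether the counting used strand is not given in the sources used here.

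NOTCH2 spans 120454176 to 120612317 of chromosome 1 on the minus strand. Its level was 25.7, 39.2, 17.1 and 31.0 TPM (counts 7387, 3078, 1817 and 2728), with a mean of 28.2 ± 9.26 TPM. It is uncertain because NOTCH2NL, a near-identical partial copy on the same chromosome, had 3521, 662, 612 and 676 counts, and reads could be split between the copies. NOTCH2NL stood at 27.2, 18.7, 12.8 and 17.1 TPM. The NOTCH2 level in replicate 1 fell inside the range of replicates 2 to 4.

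NOTCH3, a receptor best known from the smooth muscle of vessels, spans 15270444 to 15311792 of chromosome 19 on the minus strand. Its level was 12.8, 6.88, 1.85 and 4.21 TPM, from 2518, 369, 134 and 253 counts. The mean was 6.44 ± 4.73 TPM, and 4.31 ± 2.52 TPM without replicate 1. It was the most variable of the 9 detected genes, with 6.95 times as much in replicate 1 as in replicate 3, and 3.72 times between the highest and lowest of replicates 2 to 4. Of the 4 smooth muscle markers, whose levels summed to 1.48, 9.82, 4.03 and 12.0 TPM, ACTA2 made up most of the sum in replicates 2 to 4 and was at 0.421 TPM in replicate 1. RGS5, a marker of pericytes, was at 1.05, 0.507, 0.135 and 0.416 TPM, in the same order over replicates as NOTCH3. Its mean of 0.526 TPM was below the detection limit. MYH11, at 0.0119, 1.63, 0.721 and 1.01 TPM, and CNN1, at 0, 0.158, 0.175 and 0 TPM, were also below the limit. Neither these markers nor ACTA2 followed the order of NOTCH3. The part of such cells in the NOTCH3 level was not tested.

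NOTCH4, a receptor known from endothelium, spans 32162620 to 32191844 of chromosome 6 on the minus strand. Its counts were 15, 4, 8 and 5, which give 0.0902, 0.0879, 0.130 and 0.0980 TPM and a mean of 0.102 ± 0.0195 TPM. All 4 values lie below the detection limit. The counts exceed the floor of 3 counts used here, which corresponds to 0.0539 per 1000000 protein-coding counts in replicate 1 and 0.159 to 0.185 in the others. These floor values are not divided by gene length, so they cannot be set against the TPM values. NOTCH4 overlaps GPSM3 on the same strand, which had 39 to 50 counts, and shared reads could contribute to these few counts.

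The order of NOTCH1 and NOTCH2 differed between replicates. In replicate 1, NOTCH1 stood 0.22 below NOTCH2 on the log2(TPM + 1) scale, and in replicates 2 to 4 it stood 1.03, 0.92 and 1.08 above. The mean difference was 0.70 ± 0.62 (exact permutation test by two-sided sign flips, p = 0.25, adjusted p = 0.273 over 12 pairs). With 4 replicates this test cannot give a p below 0.125. Over replicates 2 to 4 the difference was 1.01 ± 0.08. Counting error does not cover the difference in any replicate. The NOTCH1:NOTCH2 ratio of counts per length was 0.854 in replicate 1 (95% Clopper-Pearson interval 0.824 to 0.885), and in the other replicates it was 2.07 (1.98 to 2.17), 1.94 (1.83 to 2.06) and 2.15 (2.05 to 2.25). These intervals reflect the number of reads alone, and reads counted without molecular identifiers may be copies of the same molecule. The order in replicate 1 rests on the gene length used. With the union of annotated exons in place of the deposited length NOTCH1 stood 0.12 above NOTCH2 there, and with the exons of coding transcripts 0.21 above. With the reads of NOTCH2NL added to NOTCH2, NOTCH1 stood 0.76 below in replicate 1 and 0.52 to 0.77 above in the others.

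The remaining 5 receptor pairs kept their order in all 4 replicates, with NOTCH1 and NOTCH2 above NOTCH3 and all 3 above NOTCH4. NOTCH1 exceeded NOTCH3 by 0.73, 3.38, 3.59 and 3.70, a mean of 2.85 ± 1.42 on the log2(TPM + 1) scale. Over replicates 2 to 4 the mean was 3.55 ± 0.16. NOTCH2 exceeded NOTCH3 by 2.15 ± 0.81. For these pairs the exact permutation p was 0.125, the smallest possible, and 0.167 after adjustment. The per-length count ratio of NOTCH1 to NOTCH3 was 1.71 (1.63 to 1.79) in replicate 1, and elsewhere it lay between 11.8 (10.6 to 13.1) and 18 (15.1 to 21.5), so the 2 receptors were far closer in replicate 1.

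As a share of the summed receptor level, NOTCH1 made up 36.2%, 63.8%, 63.5% and 65.4% in replicates 1 to 4. NOTCH2 made up 42.4%, 30.8%, 32.7% and 30.4%. NOTCH3 contributed 21.2% in replicate 1 and 5.40%, 3.53% and 4.13% in the others, and NOTCH4 at most 0.249%. The NOTCH1 shares of replicates 2 to 4 lay close together, and that of replicate 1 lay far outside them. The mean share of NOTCH1 was 57.2 ± 14.0% over 4 replicates and 64.2% without replicate 1.

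**Figure D2:**
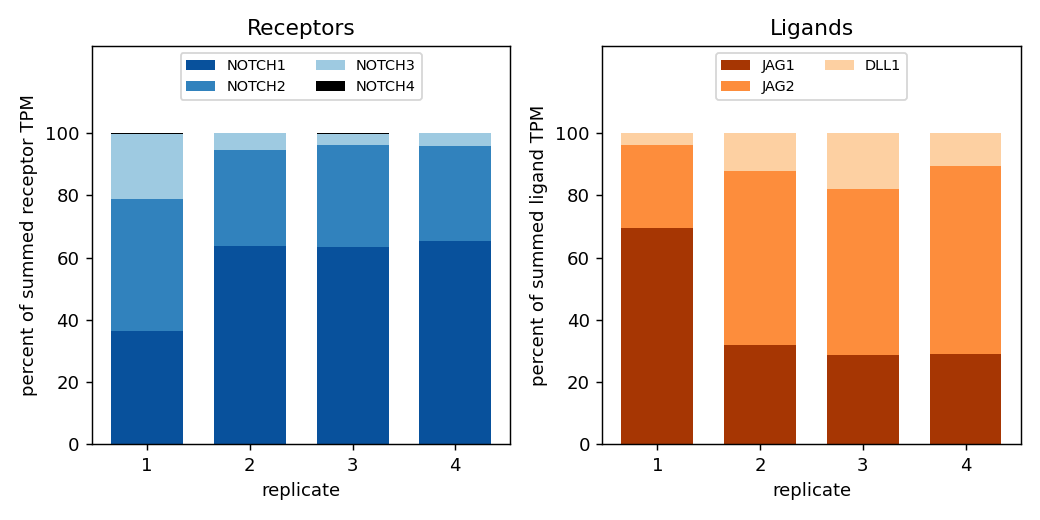
Share of each gene in the summed TPM of the 4 receptors (left) and of the 3 ligands (right), in percent, as stacked bars for replicates 1 to 4. In replicates 2 to 4 NOTCH1 takes 63.5% to 65.4% of the receptors and JAG2 53.2% to 60.5% of the ligands, whereas in replicate 1 NOTCH2 (42.4%) and JAG1 (69.5%) are the largest.

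Among the ligands, both Jagged genes were expressed at levels above most detected genes. JAG2 spans 105607318 to 105635161 of chromosome 14 on the minus strand. Its level was 57.3, 160, 76.1 and 184 TPM, from counts of 8125, 6196, 3990 and 7978. The mean of 119 ± 61.8 TPM stood at percentile 88.4 of the detected protein-coding genes. It was 140 ± 56.4 TPM without replicate 1. JAG1, spanning 10618332 to 10654694 of chromosome 20 (minus strand), was at 149, 91.2, 41.1 and 88.1 TPM (counts 21732, 3631, 2211 and 3930). Its mean was 92.4 ± 44.3 TPM, at percentile 84.5, and 73.5 ± 28.1 TPM without replicate 1. The replicate that was highest for JAG1, replicate 1, was the lowest for JAG2. An opposite-strand transcript within JAG1 (ENSG00000270792.1) had 66, 1, 1 and 0 counts.

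DLL1, the Delta-like ligand of the 3, spans 170591294 to 170599697 of chromosome 6 on the minus strand. Its level was 8.37, 35.3, 25.9 and 32 TPM, from 673, 777, 772 and 788 counts. The mean was 25.4 ± 12.0 TPM, and 31.1 ± 4.74 TPM without replicate 1. Replicate 1 lay far below the others, and among replicates 2 to 4 DLL1 varied the least of the 9 detected genes, by 1.36 times. Of the other ligands, DLK2, a Delta-like protein that lacks the domain used to activate receptors, was the only 1 of 4 detected, at 17.1, 26.8, 17.0 and 36.8 TPM. DLL3, DLL4 and DLK1 were below the limit, and DLK1 had no counts in any replicate. DLL3 was at 0, 0.694, 1.21 and 1.41 TPM, and its mean over replicates 2 to 4, 1.11 TPM, was above the limit.

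JAG1 stood 1.37 above JAG2 in replicate 1 and 0.80, 0.87 and 1.05 below it in replicates 2 to 4 on the log2(TPM + 1) scale. The mean difference of -0.34 ± 1.14 was smaller than its spread (exact permutation p = 0.625, adjusted p = 0.625). Over replicates 2 to 4 it was -0.91 ± 0.13. In replicate 1 the JAG2:JAG1 ratio of counts per length was 0.384 (0.374 to 0.394). In the others it was 1.75 (1.68 to 1.82), 1.85 (1.76 to 1.95) and 2.08 (2.0 to 2.16). Unlike that of NOTCH1 and NOTCH2, this order turned in replicate 1 with each gene length tried.

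DLL1 was below both Jagged genes in all 4 replicates. JAG1 exceeded it by 4.0, 1.34, 0.64 and 1.44, and JAG2 by 2.20 ± 0.50 on average (exact permutation p = 0.125, adjusted p = 0.167 for both). As shares of the summed ligand level, JAG1 made up 69.5%, 31.9%, 28.7% and 29%, JAG2 26.6%, 55.8%, 53.2% and 60.5%, and DLL1 3.89%, 12.3%, 18.1% and 10.5%. The mean share of JAG1 was 39.8 ± 19.8%, and 29.9% without replicate 1. The summed ligand level exceeded the summed receptor level in every replicate, by 3.55, 2.25, 2.74 and 2.98 times.

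HES1, a basic helix-loop-helix repressor and a classic target of the pathway, was the effector with the highest level. It spans 193853931 to 193856401 of chromosome 3 on the plus strand. Its level was 190, 89.8, 54.4 and 92.0 TPM, from 6741, 872, 714 and 1002 counts. The mean was 107 ± 58.2 TPM, and 78.7 ± 21.1 TPM without replicate 1. The percentile of the mean was 86.7, close to those of JAG1 and JAG2.

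HEY1, a repressor of the related HEY group, spans 80676245 to 80680098 of chromosome 8 on the minus strand. Its level was 10.8, 2.74, 1.99 and 6.09 TPM from 679, 47, 46 and 117 counts, so its precision was lowest in replicates 2 and 3. The mean was 5.41 ± 4.03 TPM, and 3.61 ± 2.19 TPM without replicate 1. RBPJ, spanning 26321332 to 26436753 of chromosome 4 (plus strand), was at 10.2, 8.77, 5.26 and 11.5 TPM (1560, 366, 297 and 538 counts), with a mean of 8.94 ± 2.69 TPM. RBPJ ranged by 2.19 times between replicates, the least of the 9 detected genes.

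HES1 was above both other effectors in every replicate, by 4.13 ± 0.37 over HEY1 and 3.34 ± 0.52 over RBPJ on the log2(TPM + 1) scale (exact permutation p = 0.125, adjusted p = 0.167). Its per-length count ratio to HEY1 was 17.5 (16.2 to 19.0), 32.7 (24.4 to 44.9), 27.4 (20.3 to 37.8) and 15.1 (12.5 to 18.5). HEY1 and RBPJ were indistinguishable by counting error in replicate 1, with an RBPJ:HEY1 ratio of 0.943 (0.861 to 1.03). In replicates 2 to 4 RBPJ was higher, with ratios of 3.20 (2.36 to 4.43), 2.65 (1.94 to 3.70) and 1.89 (1.54 to 2.33). Over the 4 replicates HEY1 differed from RBPJ by -0.80 ± 0.63 (exact permutation p = 0.25, adjusted p = 0.273). In all, 9 of the 12 pairs within a role kept 1 order in 4 replicates, and each of the other 3 turned in replicate 1. For HEY1 and RBPJ the turn was a difference of 0.08, within counting error. With the union of exons or the exons of coding transcripts as length, HEY1 stood 0.30 or 0.28 above RBPJ there. By read counts without length correction, RBPJ was higher in all 4 replicates.

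Each of the 9 detected genes ranged over more than 2-fold between the lowest and highest replicate, as did 64.2% of all detected protein-coding genes. Their median range was 3.64 times, against 2.43 times over all detected genes. Without replicate 1 it was 2.29 times, against 1.62 times. In replicates 2 to 4, 7 of the 9 ranged over 2-fold, as did 3681 of all 12165 detected protein-coding genes.

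Replicate 1 lay above the range of replicates 2 to 4 for 4 of the 9 genes, NOTCH3, JAG1, HES1 and HEY1, as for 40.2% of all detected genes. It lay below the range for 3, NOTCH1, JAG2 and DLL1, as for 37.4%. Both shares are near those of all genes. The directions depend on the scaling, since with TPM over all genes, where the protein-coding share of replicate 1 is smaller, none of the 9 lay above and 5 lay below (NOTCH1, NOTCH2, JAG2, DLL1 and RBPJ). The shares of all detected genes with this scaling are not given here, so these counts are not shown to be particular to the 9 genes. Scaling to the upper quartile gave the same 4 and 3 genes as TPM over protein-coding genes.

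The genes were set against others of similar GC content. NOTCH1 (62.9% GC) and JAG2 (64.0%) differed by -1.32 and -1.18 in the direction of their GC class, as the 1611 detected genes with a GC content of 60% to 66% stood lower in replicate 1 than in the mean of the others, with a median of -0.73 on the log2(TPM + 1) scale. DLL1 (58.3%) differed by -1.76, and the median of 1548 genes of 56% to 60% GC was -0.58. JAG1 (49.6%), HES1 (49.9%) and HEY1 (47.3%) lie where the median of 3783 genes (45% to 55% GC) was -0.09, and these 3 genes differed by 1.1, 1.3 and 1.46. NOTCH3 went against the trend. With 63.1% GC it stood 1.5 higher in replicate 1, and among genes of 60% to 66% GC only 15.6% lay above the range of the others.

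After each replicate was centred within 20 bins of GC content, replicate 1 lay above the others for the same 4 genes (37.9% of all genes with a GC value) and below for 3, now NOTCH1, DLL1 and RBPJ (34.2%). The difference of NOTCH3 grew from 1.5 to 2.24 and that of NOTCH1 shrank from -1.32 to -0.59. JAG2 moved from -1.18 to -0.44, inside the range of the others. Under this centring NOTCH1 stood 0.27 above NOTCH2 in replicate 1, so the order of these 2 receptors was then the same in all replicates, while JAG1 still stood 0.88 above JAG2 there.

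**Figure D3:**
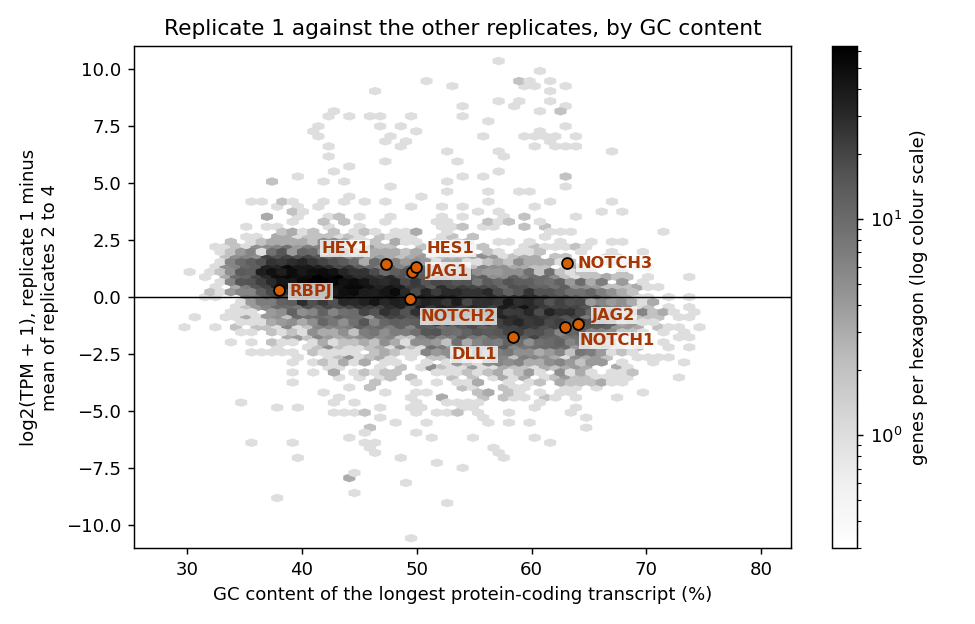
Log2(TPM + 1) of replicate 1 minus its mean over replicates 2 to 4 (vertical axis) against GC content in percent (horizontal axis), for detected protein-coding genes with a GC value (grey hexagons, darker for more genes on a log colour scale) and the 9 detected Notch genes (orange points). The grey cloud falls with GC content, NOTCH1 and JAG2 lie within it at -1.32 and -1.18, and NOTCH3, at a similar GC content, lies above at 1.5.

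Replicate 3 was the lowest of replicates 2 to 4 for 9 of the 9 detected genes. The same was true of 60.0% of all detected genes and of 88.4% of the 3010 genes with a length above 5000 bases. NOTCH1, NOTCH2, NOTCH3, JAG1, JAG2 and RBPJ are of such a length, from 5835 to 11825 bases, and DLL1, HES1 and HEY1 are shorter. The part of length in the levels of these genes was not tested.

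Beyond the 10 genes, 46 of 53 other genes of the pathway were detected, against 63.3% of all protein-coding genes. Replicate 1 lay above the others for 17 of the 46, below for 18 and within their range for 11, and the shares of all detected genes were 40.2% above and 37.4% below. Of 8 HES and HEY family and feedback genes 6 were detected. HES4 led them at 60.7, 102, 122 and 85.2 TPM, followed by NRARP, a feedback inhibitor of the receptor complex, at 23.3, 48.5, 48.3 and 43.4 TPM, and HES2 at 55.6, 32.2, 16.6 and 20.8 TPM. HES4 and NRARP were lowest in replicate 1, where HES1 and HES2 were highest. HES5 was low, at 11.2, 5.64, 0.852 and 2.57 TPM. HES7 had the widest range of the group, from 0.171 TPM in replicate 1 to 2.50 TPM in replicate 2, and HEY2 and HEYL were below the limit at means of 0.283 and 0.0182 TPM.

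Genes that act with RBPJ were detected almost throughout, with 6 of 7 coactivators and 6 of 6 corepressors. SNW1, a nuclear cofactor, was at 151, 130, 119 and 106 TPM, the Mastermind-like coactivator MAML1 at 11.4, 41.9, 34.1 and 36.3 TPM, and the acetyltransferase EP300 at 19.1, 37.6, 15.5 and 42.0 TPM. MAML1 was low in replicate 1 only. The acetyltransferase CREBBP varied most of the coactivators, at 7.20, 37.8, 19.8 and 31.5 TPM, and MAML3 was the 1 not detected. Among corepressors, the deacetylase HDAC1 stood at 302, 200.05, 146 and 210.4 TPM and CTBP1 at 88.8, 84.2, 87.8 and 85.1 TPM. The CTBP1 values were nearly the same in all replicates with TPM over protein-coding genes. Whether they stay so with TPM over all genes is not given here.

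The genes that process the receptors were all detected, 9 of 9 for cleavage and 5 of 5 for glycosylation. APH1A, a gamma-secretase subunit, was at 253, 208, 198 and 197 TPM. FURIN, which cuts the receptor on its way to the surface, was at 50.8, 201, 148 and 193 TPM, and ADAM10, the protease that cuts it after ligand binding, at 122, 99.1, 43.6 and 126 TPM. FURIN was low in replicate 1 and ADAM10 in replicate 3. The paralog APH1B was near the detection limit, at 0.451 to 2.37 TPM. POFUT1, which adds O-fucose to the receptors, stood at 39.2, 55.9, 60.3 and 62.2 TPM. Of the Fringe enzymes that extend this sugar, RFNG was at 14.9, 33.2, 29.8 and 37.6 TPM, LFNG at 26.2, 17.8, 14.3 and 24.4 TPM, and MFNG at 3.62, 22.7, 7.55 and 5.28 TPM, the widest of the group.

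Of 14 ubiquitination and endocytosis genes 13 were detected, and DTX1 was not. DTX3L was at 46.6, 162, 98.4 and 56.5 TPM. It is also known as an interferon-responsive gene, and 6 interferon-induced genes (IFI6, IFIT1, IFIT3, ISG15, MX1 and OAS1) summed to 187, 6372, 7033 and 306 TPM, so DTX3L was highest in the 2 replicates where they were. Whether interferon had a part in the level of DTX3L was not tested. MIB2, a ligase for the ligands, was at 43.7, 56.5, 73.5 and 73.2 TPM, and ITCH, a ligase for the receptors, at 82.0, 44.0, 28.9 and 47.2 TPM. NEURL1 had the widest range, with 7 counts (0.0668 TPM) in replicate 1 and 4.51 to 6.94 TPM in the others.

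The 6 epidermal genes tied to Notch in keratinocytes were detected, and replicate 1 lay above the others for 5 of them, as it did for 40.2% of all detected genes. The early differentiation keratins were far higher there, with KRT10 at 229 TPM against 31.3 to 52.4 and KRT1 at 124 TPM against 0.219 to 0.545. IVL, a protein of the cornified envelope, was at 202 TPM against 4.06 to 14.9. TP63, the regulator of basal keratinocytes, was at 90.7, 86.1, 34.5 and 73.4 TPM, only slightly above replicate 2 in replicate 1. CDKN1A, a cell cycle inhibitor, was at 121, 137, 77.5 and 93.8 TPM, inside the range of the others in replicate 1. KRT1, KRT10 and IVL were thus high in the same replicate as JAG1, HES1, HEY1 and NOTCH3. NOTCH1, JAG2 and DLL1 were low in that replicate, and so were HES4 and NRARP. With TPM over all genes, JAG1, HES1, HEY1 and NOTCH3 did not lie above the others in replicate 1. After GC centring, JAG2 did not lie below the others there. Since GC content, the RNA makeup and differentiation genes all differ in that 1 library, their parts in the Notch values cannot be told apart.

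**Figure D4:**
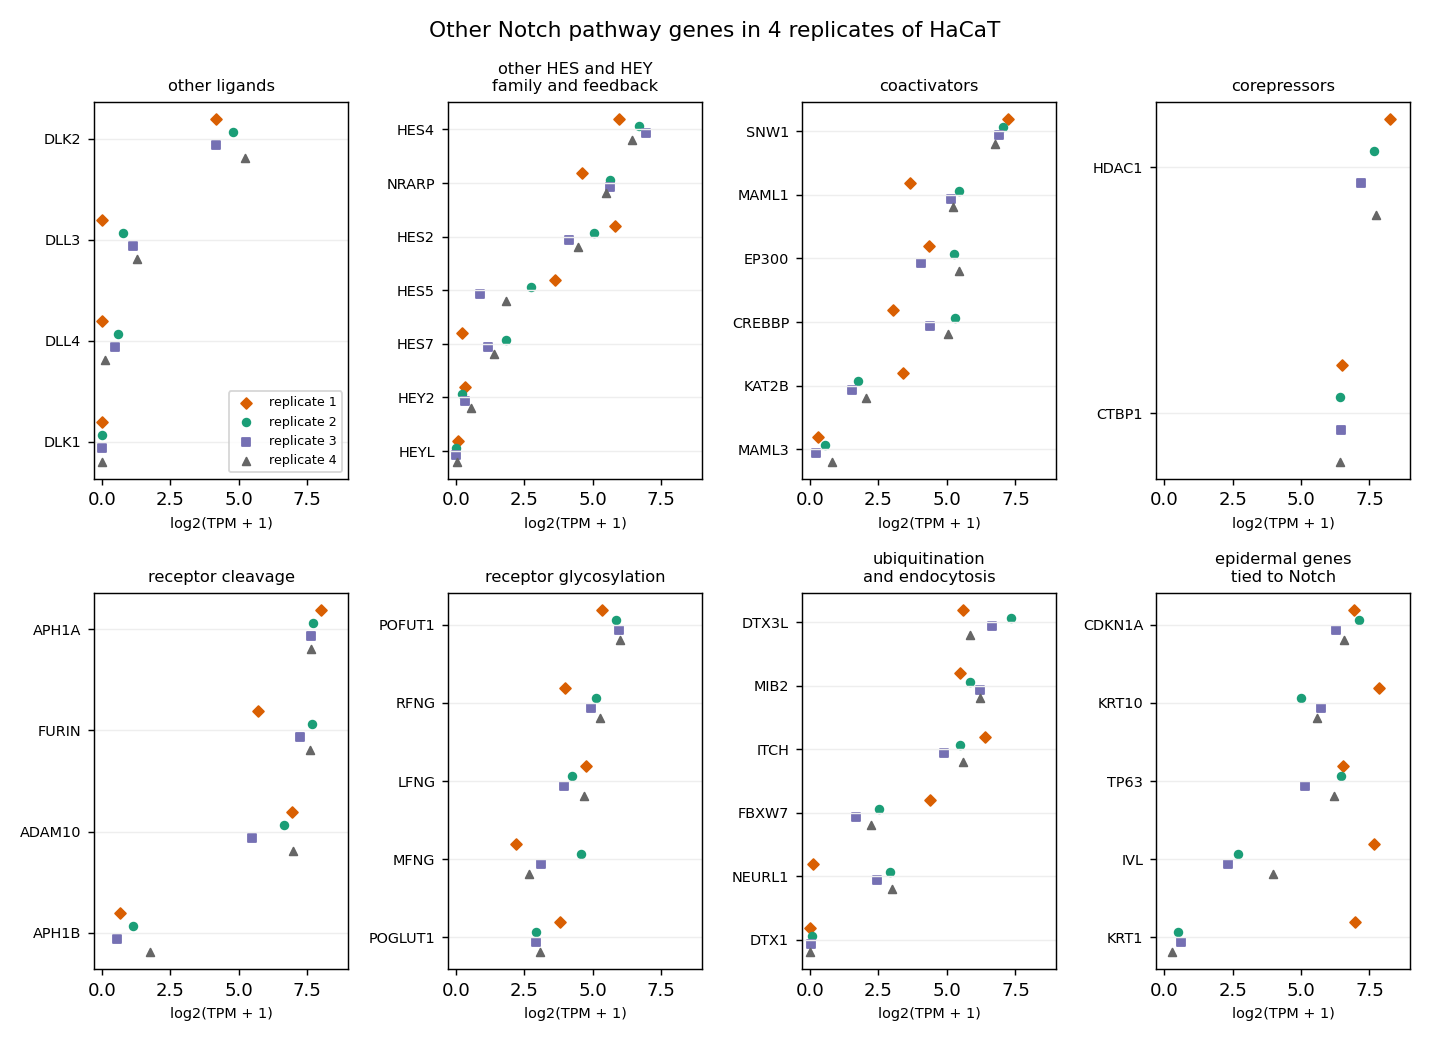
Levels of the other pathway and epidermal genes that the text names, as log2(TPM + 1) on the horizontal axis, in 8 panels by role, with symbols for replicates 1 to 4 and genes ordered by level within a panel. With TPM over protein-coding genes, CTBP1 is nearly equal in all 4 replicates (84.2 to 88.8 TPM). FURIN, NEURL1 and MAML1 are lowest in replicate 1, and KRT1, KRT10 and IVL are highest in it.

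Other genes with a pattern close to the leading members were ranked by the root mean square difference of log2(TPM + 1) over the 4 replicates. Nearest to NOTCH1 were SLC6A9 (0.162), at 22.2, 67.9, 37.7 and 62.3 TPM, and HDAC7 (0.192). CLSTN1, at 60.3, 141, 87.6 and 206 TPM, lay close to JAG2 (0.161). Nearest to HES1 were YME1L1 (0.128), at 159, 89.0, 54.9 and 89.9 TPM, and MATR3 (0.163). With 4 libraries that differ in GC and length trends, such likeness is a description only.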

How the data were processed

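RNA-seq of 4 replicates of untreated HaCaT cells was used. For every gene and replicate the authors deposited raw counts, a gene length and a position on hg19, with RPKM for replicates 1 and 2 and TPM for replicates 3 and 4. The submitters' processing notes name HISAT2, TopHat2, Bowtie2, HISAT and hg19, without their roles. The counting program, the annotation and the RNA selection are not given in the sources used here. As these units are not the same in all files, counts and lengths were turned into TPM in each replicate over the 19233 protein-coding genes. Total counts were 73082279, 17056035, 19745170 and 19083836.

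The 10 genes and all gene lists were chosen with earlier results of these data known. All 10 genes are named, and in each list of other pathway genes the 3 with the highest mean and the detected gene with the widest range, with other genes by count. HES5, HEY2, HEYL and the genes below the limit were named after their values were seen. For likeness, the 2 nearest genes of the highest receptor, the highest ligand and HES1 are named. Some genes that these rules name are not reported here.

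A mean above 1 TPM was called detected (12165 protein-coding genes). Differences within replicates were taken on the log2(TPM + 1) scale, which understates changes of low genes, and the exact permutation test flipped their signs (two-sided), with Benjamini-Hochberg adjustment over 12 pairs. Count ratios have 95% Clopper-Pearson intervals. No differential expression was tested, as there is 1 condition. GC content is that of each gene's longest protein-coding transcript in GENCODE release 29, found for 97.7% of detected genes. Promoter windows came from RefSeq (GRCh38.p14) and file positions were left on hg19. Alternatives were the pseudocount, the detection limit, the gene length, the scaling, the deposited values and leaving out each replicate. The code was tested on simulated data. The work used SciPy 1.17.1, pandas 2.3.3 and NumPy 2.4.6 under Python 3.11.15, with matplotlib 3.10.9 for figures.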

Additional observations from a re-analysis of the deposited data

Results flagged for a closer look

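In 9 of 68 sets of 4 values, 1 replicate lay farther from the other 3 than Dixon's criterion allows at 95%. Chance gives such a gap in about 1 in 20 independent sets, or 3.4 of 68, but these sets are not independent. How often such a gap occurs over all detected protein-coding genes was not computed. Replicate 1 lay above the others for 40.2% of all detected genes and below for 37.4%. The 9 of 68 are therefore not shown to be an excess particular to the sets tested here. In each of the 9 the replicate was replicate 1. The share of NOTCH1 in the summed receptor level was 36.2% there against 63.5% to 65.4%, that of NOTCH3 21.2% against 3.53% to 5.40%, and the share of JAG1 in the summed ligand level 69.5% against 28.7% to 31.9%. Among the other pathway genes, the acetyltransferase KAT2B was at 9.65 TPM against 1.89 to 3.12, the glucosyltransferase POGLUT1 at 13.1 TPM against 6.51 to 7.30, and FBXW7, the ubiquitin ligase subunit that targets the cleaved receptor, at 19.8 TPM against 2.23 to 4.69. Among the epidermal genes, KRT1 was at 124 TPM against 0.219 to 0.545, KRT10 at 229 TPM against 31.3 to 52.4, and IVL at 202 TPM against 4.06 to 14.9. Replicate 1 also differed in depth, RNA makeup and GC trend, whose parts in these values were not tested. The values of single genes are TPM over protein-coding genes. Whether their gaps remain with TPM over all genes is not given here, whereas shares within a family do not depend on this scaling.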

How the results depend on the processing

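No paired analysis was possible because the series holds 1 group. GC centring, the exons of coding transcripts as length, the added NOTCH2NL reads and the check of replicate 3 were chosen after seeing the data. The 120 recomputed pair differences kept their direction, though those centred by GC keep their mean by construction. NOTCH1 over NOTCH2 ranged from 0.32 with NOTCH2NL reads added to 1.14 with coding exons, against 0.70, and from 0.58 to 1.01 when 1 replicate was left out. JAG1 against JAG2 ranged from -0.10 to -0.91 when 1 replicate was left out, the latter without replicate 1. Pairs with 1 order in all replicates numbered 9 to 12, with 12 without replicate 1. All 10 genes passed a limit of 0.1 TPM. NOTCH4 did so only by its mean of 0.102 TPM, as its values in replicates 1, 2 and 4 lay below 0.1 TPM. With TPM over all genes the mean of NOTCH4 was 0.0777. The genes with replicate 1 outside the others were 5 with TPM over all genes, against 7, and the share of all detected genes with that scaling is not given here. With the values as deposited, which mix RPKM and TPM, all 10 means were lower: NOTCH1 32.5, NOTCH2 16.9, NOTCH3 3.12, NOTCH4 0.0673, JAG1 50.8, JAG2 79.6, DLL1 17.2, HES1 57.8, HEY1 3.02 and RBPJ 5.53. With TPM over all genes, the means of NOTCH3 (3.90), JAG1 (61.2), HES1 (67.9) and HEY1 (3.30) fell by more than 1.5 times. The NOTCH2 share was 40.1% by counts alone and 27.9% with coding exons. Depth limits NOTCH4, at 4 to 15 counts, and HEY1 in replicates 2 and 3.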
